A study of Mus musculus with 6 samples.

Results

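Transcripts of 9 complement components that macrophages make were followed in bone marrow-derived macrophages (BMDMs), namely *C1qa*, *C1qb*, *C1qc*, *C1ra*, *C2*, *C3*, *C4b*, *Cfb* and *Cfp*. They were taken by gene symbol from a table of 55335 mouse genes, and each symbol matched exactly 1 gene. The BMDMs were grown from *Cd177* WT mouse marrow for 7 days with 25 ng/ml M-CSF and then kept for 24 h in direct contact with neutrophils from spinal cord lesions at 3 dpi (days post-injury). The neutrophils came from *Cd177* WT mice in 3 cultures and from *Cd177* KO mice (*Cd177*-/-) in the other 3. The KO thus lay in the added neutrophils, and the macrophages of both groups carried the intact gene. The mice were adult males on the C57BL/6 background, and the macrophages were sorted as Ly6G- cells before RNA extraction. No culture without neutrophils was analysed here, and the labels do not say whether the 3 cultures of a group used separate mice. The p-values therefore measure the spread between these libraries, which may be technical.

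Complement is a cascade of plasma and tissue proteins that tags targets for uptake and attracts leukocytes. C1q, built from the products of *C1qa*, *C1qb* and *C1qc*, recognises antibody complexes and dying cells. It opens the classical pathway through the proteases C1r and C1s, the latter of which cuts C4 and C2. C3 is the protein on which all pathways meet, and factor B (*Cfb*) and properdin (*Cfp*) build and stabilise the alternative pathway convertase that cuts more C3. Most complement proteins of plasma come from the liver, whereas C1q is made chiefly by tissue macrophages, and macrophages can also make C3 and factor B locally.

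Values are FPKM (fragments per kilobase of transcript, relative to the library's total) as deposited, which adjust for transcript length and library total. The low values pointed to 17700000 to 20300000 fragments per library, although only 39.9% to 43.5% of them lay within 0.1 of a whole fragment, against 20% if spread evenly, so counts could not be recovered. Correlations between libraries of a group were 0.967 to 0.985, against 0.905 to 0.917 between groups. *Cd177* itself had 0.544, 0.309 and 0.521 FPKM in the WT-labelled libraries and 1.79, 1.84 and 2.28 FPKM in the KO-labelled ones. The macrophages of both groups carried the intact gene, but the neutrophil markers given below also summed higher in the KO-labelled libraries. The *Cd177* values thus run in the opposite order to the labels. They neither bear the labels out nor settle them, since which cells gave the *Cd177* reads was not tested. Directions are given between libraries as labelled. All 8 markers of the labelled cell type, the macrophage, were detected, and *Lyz2* and *Csf1r* averaged 5533 and 273 FPKM over the 6 libraries. Fibroblast markers were detected too, *Col1a1* and *Col1a2* averaging 315 and 145 FPKM and *Pdgfra*, *Dcn* and *Lum* 3.21, 1.96 and 0.37 FPKM. The markers thus do not show that macrophages were the only cells. Neutrophil markers (13 genes) summed to 199 to 258 FPKM in the WT-labelled libraries and 540 to 553 FPKM in the KO-labelled ones, with *Ly6g* listed at 0 in all of the former and at 0.403 to 0.660 FPKM in the latter. The microglial markers *Sall1* and *Siglech* and the astrocyte markers *Gfap* and *Aqp4* stayed under 0.06 FPKM everywhere. In bulk samples, fewer cells of a type and less RNA per cell cannot be told apart.

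Of the 9 genes, 8 reached a mean of 0.5 FPKM and were tested with limma after adding 0.5 FPKM and taking log2, which understates changes near the floor. Differences on this scale (log2FC) are KO minus WT. At an adjusted p-value under 0.05, 3 were higher in the KO-labelled libraries (*C1qa*, *C1qc* and *Cfp*) and 3 were lower (*C3*, *Cfb* and *C1ra*), while *C1qb* and *C2* did not pass. Over all 13367 tested genes, 27.1% were called higher and 10.5% lower, and these shares are the background for such a short list. The groups did not overlap in any of the 8 tested genes, 4 with KO above and 4 with KO below, against 51.9% of all tested genes, 37.5% above and 14.4% below. The sizes were far apart, with rises of at most 1.69-fold beside falls of 17-fold for *C3* and 109-fold for *Cfb* in mean FPKM. The *Cfb* figure rests on a KO mean of 0.266 FPKM, near the floor, and became 75.8-fold with the overlapping gene *Gm20547* added.

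**Figure D1:**
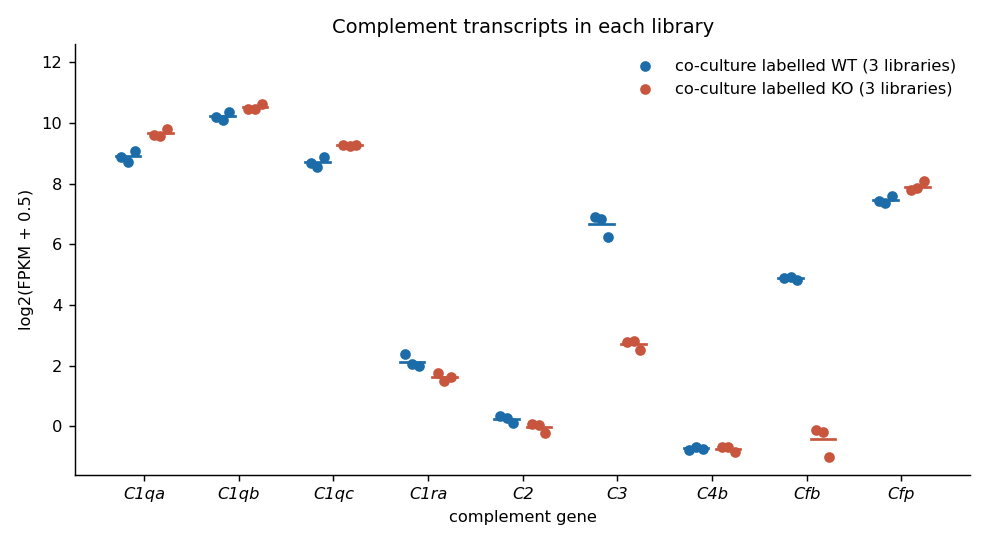
Level of each complement gene, as log2(FPKM + 0.5), in the 3 WT-labelled libraries (blue points) and the 3 KO-labelled ones (red points), with a bar at each group's mean on this scale. *C3* and *Cfb* drop far below their WT points, the C1q genes and *Cfp* sit slightly higher in KO, and *C4b* lies near the floor in both.

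The C1q genes were the most abundant of the set. *C1qa*, *C1qc* and *C1qb* lie side by side on one strand of chromosome 4 (136895917 to 136898803, 136889804 to 136893065 and 136880129 to 136886187 in GENCODE M21, GRCm38). *C1qb* (ENSMUSG00000036905), which encodes the B chain, had 1179, 1089 and 1326 FPKM in the WT-labelled libraries and 1403, 1396 and 1575 FPKM in the KO-labelled ones. Its lowest KO library thus lay above its highest WT library, and its median rank among tested genes was 27 in WT and 23 in KO. The log2FC was 0.29 (standard error 0.11, 95% interval 0.03 to 0.54) and did not pass (adjusted p = 0.0807, limma).

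*C1qa* (ENSMUSG00000036887), the A chain, had 469, 419 and 544 FPKM in WT and 767, 759 and 891 FPKM in KO. The group means were 477 ± 62.7 and 806 ± 74.0 FPKM (SD, n = 3 each), and it rose with a log2FC of 0.76 (standard error 0.12, adjusted p = 0.00374, limma). *C1qc* (ENSMUSG00000036896), the C chain, had 413, 373 and 471 FPKM in WT and 611, 607 and 623 FPKM in KO. Its KO libraries were almost level with each other and stood above every WT library, with a log2FC of 0.56 (standard error 0.10, adjusted p = 0.00627, limma). The summed C1q transcripts made up 0.622% to 0.687% of all FPKM in the WT-labelled libraries and 0.900% to 0.958% in the KO-labelled ones.

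These modest rises depended on how libraries were scaled to each other. The median log2FC of all tested genes was 0.19 as deposited and -0.01 after median-of-ratios scaling, which assumes that most genes do not change. With that scaling *C1qa* still passed (0.53, adjusted p = 0.0311, limma), while *C1qc* (0.33, adjusted p = 0.0833, limma) and *C1qb* (0.06, 95% interval -0.25 to 0.37) did not. Upper-quartile scaling also left *C1qc* short (0.34, adjusted p = 0.0928, limma). Under quantile normalization the median of all tested genes was 0.03, with *C1qa* at 0.81 and *C1qc* at 0.55. There both passed (adjusted p = 0.000899 and 0.000775, limma), but *C1qb* (0.18) did not. Of the 8 macrophage markers, 2 were higher as deposited (*Adgre1* with a log2FC of 0.30 and *Mertk* with 0.72), 2 were lower (*Cd14* with -3.33 and *Fcgr1* with -1.83) and 4 did not pass, *Lyz2* at 0.33 and *Csf1r* at 0.11 among them. Microglial markers, whose cells also make C1q, summed to 80.3 to 99 FPKM in WT and 103 to 126 FPKM in KO over 6 genes. Of these, 4 were tested and *P2ry12* (0.217 against 5.40 FPKM on average) and *Gpr34* (0.0349 against 10.4 FPKM) were higher. Their part in the C1q result was not tested.

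The balance between the chains was read within each library, where, apart from the pseudocount, scaling between libraries has no part. The log2 ratio of *C1qa* to *C1qb* was -1.33, -1.38 and -1.29 in WT and -0.87, -0.88 and -0.82 in KO. *C1qa* transcripts thus stood at 0.398 of the *C1qb* level in WT and at 0.552 of it in KO, a log2 difference of 0.47. The ratio of *C1qb* to *C1qc* went the other way, from 2.86 in WT to 2.37 in KO, and that of *C1qa* to *C1qc* from 1.14 to 1.31. Groups did not overlap in any of these ratios, each with an exact permutation p = 0.1 (two-sided), the smallest that 3 against 3 libraries can give, and an adjusted p of 0.1 over the 7 ratios compared.

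The 250 bases before the RefSeq start of *C1qb* (chr4:136886201-136886450, minus strand, GRCm38.p6) are printed because this gene carries the most abundant C1q transcript. Capitals mark the only match to the motifs searched, which were the interferon-stimulated response element (ISRE), TTCNNNGAA (STAT), GAGGAA (PU.1), TGCTGAC (Maf half-site), TTGCNNAA (C/EBP), TATAAA and the kappaB consensus, on both strands.
C1qb: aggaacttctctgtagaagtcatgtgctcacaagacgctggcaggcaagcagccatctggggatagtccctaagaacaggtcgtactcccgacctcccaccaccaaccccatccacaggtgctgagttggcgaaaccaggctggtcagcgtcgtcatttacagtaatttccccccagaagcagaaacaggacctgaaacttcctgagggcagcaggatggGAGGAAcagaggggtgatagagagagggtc
The match is the PU.1 core, starting at position -30 from the start. It also occurred in the windows (250 bases before to 50 after the start) of *C1qc*, *C1ra* and *Cfp*, and thus in 4 of the 5 genes with a RefSeq promoter in the table, against 28.3% of all 32851 windows. *C1qa*, *C2*, *C4b* and *Cfb* were not in it.

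*C3* (ENSMUSG00000024164, chromosome 17 from 57203970 to 57228136) showed a change of another order. It had 118, 114 and 74.4 FPKM in the WT-labelled libraries and 6.28, 6.45 and 5.27 FPKM in the KO-labelled ones. WT replicate 3 was the lowest of its group and still stood more than 10 times above every KO library. The mean was 102 ± 24.1 FPKM in WT and 6.0 ± 0.636 FPKM in KO (SD, n = 3 each), a log2FC of -3.96 (standard error 0.19, adjusted p = 1.76e-05, limma). Its median rank went from 348 of the tested genes in WT to 6132 in KO. Without WT replicate 3 the log2FC was -4.17, and it was -4.17 with median-of-ratios scaling too. Fibroblasts can make C3 as well, and of their 5 markers, 4 were tested. *Dcn* was lower in KO (2.82 against 1.11 FPKM on average, adjusted p = 0.00218, limma) and the other 3 did not pass. *Col1a1* had 228 to 361 FPKM in WT and 292 to 344 FPKM in KO, with WT replicate 3 the lowest. Their part in the *C3* result was not tested.

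*Cfb* (ENSMUSG00000090231, chromosome 17 from 34856374 to 34862518), the protease of the alternative pathway, fell furthest. It had 29.4, 29.8 and 27.9 FPKM in WT and 0.423 and 0.376 FPKM in KO replicates 1 and 2, and was listed at 0 in KO replicate 3. The log2FC was -5.32 (standard error 0.23, adjusted p = 1.21e-05, limma), the 11th lowest of all tested genes. *C3* stood at place 38 in the same order. A log2FC under -3 that passed the test was found in 0.636% of the tested genes. *Gm20547*, a read-through gene that overlaps *Cfb* and *C2* on the same strand, was listed at 0 in KO replicates 1 and 2 and at 0.351 FPKM in KO replicate 3. The sum of *Cfb* and *Gm20547* was 0.423, 0.376 and 0.351 FPKM in KO and 29.1 ± 1.02 FPKM (SD, n = 3) in WT, a 75.8-fold difference in mean FPKM.

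The 250 bases before the start of *C3* (chr17:57228137-57228386, minus strand, GRCm38.p6) are shown beside those of *C1qb* because *C3* changed most among the genes with an entry. Capitals mark the only match to the same motifs in this stretch.
C3: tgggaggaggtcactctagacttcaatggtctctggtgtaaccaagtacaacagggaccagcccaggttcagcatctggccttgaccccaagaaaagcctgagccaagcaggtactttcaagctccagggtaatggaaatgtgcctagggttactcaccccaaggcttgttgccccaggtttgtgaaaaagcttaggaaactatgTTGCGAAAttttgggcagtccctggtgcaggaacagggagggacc
This match is to the C/EBP motif, starting at position -45, a motif found in 10.8% of all windows and, among the 5 genes, also in *C1ra*. A TATAAA match lay downstream of the annotated *C3* start. No ISRE match was found in any of the 5 windows, against 3.44% of all windows, which says only that these letters are not in these windows.

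**Figure D2:**
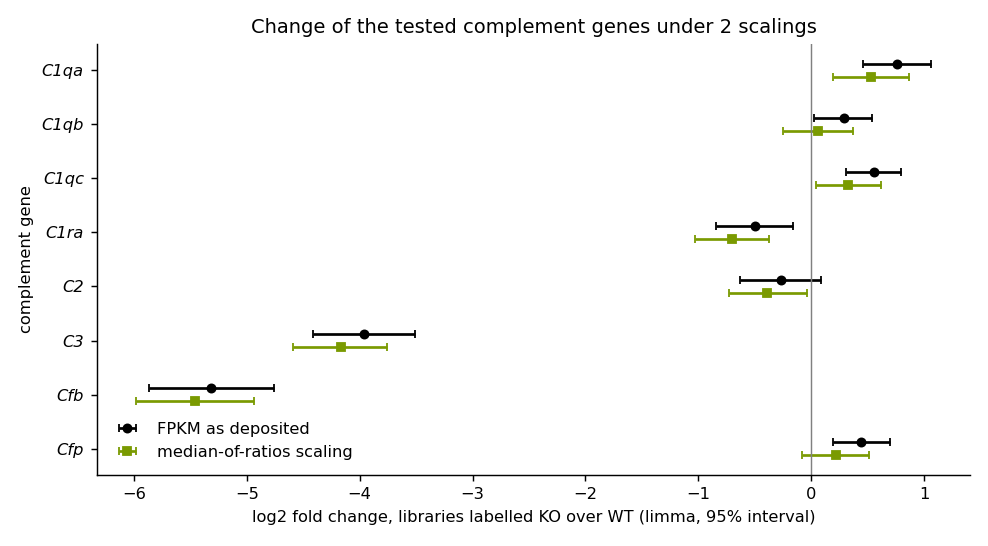
Log2FC of the 8 tested complement genes in the KO-labelled libraries over those labelled WT (limma, 3 libraries per group, bars are 95% intervals), with FPKM as deposited (black circles) and after median-of-ratios scaling (green squares). *C3* and *Cfb* stay near -4 and -5 under both, whereas the small rises of *C1qb*, *C1qc* and *Cfp* move toward 0.

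*Cfp* (ENSMUSG00000001128, chromosome X from 20925454 to 20931555), which encodes properdin, the stabiliser of the alternative pathway convertase, did not follow *C3* and *Cfb*. It had 172, 163 and 192 FPKM in WT and 222, 228 and 268 FPKM in KO, so that every KO library stood above every WT library. The log2FC was 0.44 (standard error 0.11, adjusted p = 0.0179, limma), and 0.22 with median-of-ratios scaling, where it did not pass (adjusted p = 0.238, limma). It also missed the threshold without WT replicate 1 (adjusted p = 0.0612, limma) and without WT replicate 2 (adjusted p = 0.0593, limma). Neutrophils make properdin too, and of the 10 tested neutrophil markers 1 was lower and 8 were higher in the KO-labelled libraries, such as *S100a9* (90.5 FPKM on average in WT and 234 FPKM in KO). Their part in the *Cfp* result was not tested.

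The early proteases were low in both groups. *C1ra* (ENSMUSG00000055172, chromosome 6 from 124512405 to 124523443), which encodes C1r, had 4.70, 3.64 and 3.42 FPKM in WT and 2.91, 2.32 and 2.59 FPKM in KO. It was lower in the KO-labelled libraries, with a log2FC of -0.50 (standard error 0.14, adjusted p = 0.0316, limma). The call was lost when any library other than WT replicate 3 was left out (adjusted p = 0.0527 to 0.109, limma), while the log2FC stayed between -0.38 and -0.58 with each library left out. Its near-identical neighbour *C1rb* had at most 0.0731 FPKM. Fibroblast markers, whose cells also make C1r, summed to 347 to 510 FPKM in WT and 452 to 511 FPKM in KO over 5 genes, so the groups overlapped, and of 4 tested only *Dcn* passed, being lower in KO. Their part in the *C1ra* result was not tested.

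*C2* (ENSMUSG00000024371, chromosome 17 from 34862604 to 34898265), the classical pathway relative of *Cfb*, had 0.751, 0.709 and 0.588 FPKM in WT and 0.560, 0.529 and 0.362 FPKM in KO. The KO libraries lay just below the WT ones, and the log2FC of -0.27 (95% interval -0.63 to 0.09) did not pass (adjusted p = 0.207, limma). *C2* lies next to *Cfb* and shares its strand, yet the log2 ratio of *C2* to *Cfb* moved from -4.64 ± 0.06 in WT to 0.41 ± 0.33 in KO (SD, n = 3 each, exact permutation p = 0.1). With both genes near or under the pseudocount of 0.5 in KO, this difference of 5.05 became 6.21 with a pseudocount of 0.1 and 4.40 with 1. *Zbtb12*, which overlaps *C2* on the opposite strand, was higher in KO (1.05 against 3.80 FPKM on average), and since strand-specific counting is not stated, reads of the pair cannot be told apart. *C4b* (ENSMUSG00000073418, chromosome 17 from 34728380 to 34743882), the substrate of C1s, lay between 0.0565 and 0.129 FPKM in all 6 libraries and was too low to test. Its near-copy *C4a* had 0.0667 to 0.172 FPKM, and reads of the 2 genes may be split between them.

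Genes around the falling members did not share the size of their fall. Apart from *Zbtb12*, which lies inside *C2* and had a log2FC of 1.62, the 3 nearest tested protein-coding genes on each side of *C2* and *Cfb* had log2FCs between -0.48 (*Hspa1b*) and 0.55 (*Ehmt2*), 2 of these 6 being called lower and 1 higher. *Nelfe*, which lies 0.002 kb from *Cfb*, was at -0.06 (adjusted p = 0.741, limma). The 6 around *C3* lay between -0.94 (*Tnfsf14*) and 1.01 (*Dennd1c*), with 3 called lower (*Tnfsf14*, *Tnfsf9* and *Gpr108*) and 1 higher. The 6 around the C1q genes lay between -0.44 (*Luzp1*) and 0.64 (*Hspg2*), of which *Hnrnpr* alone passed the test. For comparison, 10.5% of all tested genes were called lower and 27.1% higher.

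The balance between C1q and the C3 arm was read within each library. The mean log2 level of the C1q genes exceeded that of *C3* by 2.37, 2.27 and 3.22 in WT and by 7.01, 6.96 and 7.37 in KO. C1q transcripts were thus 6.15 times the *C3* level in WT and 138 times in KO, a log2 difference of 4.49 (exact permutation p = 0.1, adjusted p = 0.1 over the 7 ratios). Against *Cfb*, whose KO values lie under the pseudocount of 0.5, the log2 difference was 5.85 and depended on that pseudocount (7.17 with 0.1 and 5.12 with 1). The ratio of *C3* to *Cfp* changed by -4.40. This permutation test cannot give a p under 0.1 here, but the groups lay far apart relative to their spread, with SDs of 0.57 or less.

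**Figure D3:**
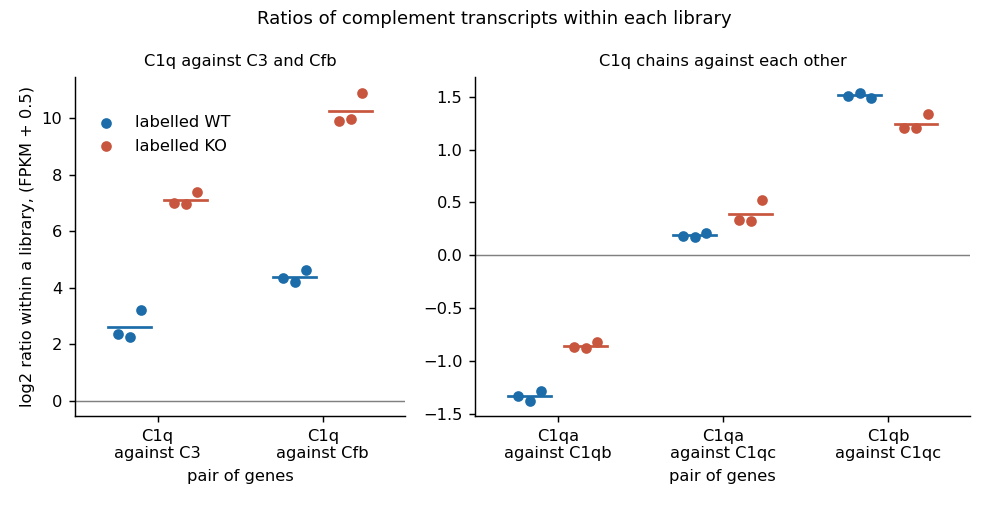
Log2 ratios of complement transcripts within each library, computed on FPKM + 0.5 (C1q is the mean log2 level of its 3 genes), for WT-labelled libraries (blue) and KO (red) with bars at the group means. The C1q to *C3* ratio sits at 2.27 to 3.22 in WT and 6.96 to 7.37 in KO, and the *C1qa* to *C1qb* ratio shifts by 0.47.

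The rest of the system was read from 5 lists of 49 genes, of which 20 were tested, 8 called higher and 2 lower in the KO-labelled libraries, with a median log2FC of 0.40. Over all tested genes the median was 0.19, with 27.1% higher and 10.5% lower. With median-of-ratios scaling 4 were higher, among them *Masp1*, *Cd55* and *Cd93*. Among other initiators, 3 of 5 tested genes were higher and none lower. *Masp1*, a protease of the lectin pathway, had 1.65, 1.86 and 1.26 FPKM in WT and 4.80, 4.27 and 3.76 FPKM in KO, with a log2FC of 1.20 (adjusted p = 0.00115, limma). *Fcna* (ficolin A) and the collectin *Colec12* rose by 0.54 and 0.44 on the log2 scale (adjusted p = 0.0192 and 0.00956, limma), and both missed the threshold with median-of-ratios scaling. *Fcna* also missed it without KO replicate 1 or 2 (adjusted p = 0.0714 and 0.0594, limma). *C1s1*, the partner of *C1ra*, had 0.887 to 1.13 FPKM in WT and 1.05 to 1.21 FPKM in KO. Of factor D and the terminal components, only *C8g* of 8 genes reached 0.5 FPKM, and it did not pass, while *C6*, *C7*, *C8a* and *C8b* were listed at 0 in every library.

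Among soluble regulators, *Serping1*, the inhibitor of C1r and C1s, had 4.23, 5.0 and 4.84 FPKM in WT and 2.28, 2.31 and 2.77 FPKM in KO, with a log2FC of -0.81 (adjusted p = 0.00205, limma). *Cfi* was listed at 0 throughout. Of the membrane regulators, which protect the cell's own surface, *Cd55* and *Cr1l* (Crry) were higher by 0.79 and 0.48 on the log2 scale (adjusted p = 0.0108 and 0.0111, limma), and *Cr1l* missed the threshold with median-of-ratios scaling (adjusted p = 0.0970, limma) and without KO replicate 1 (adjusted p = 0.0528, limma).

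Of 9 tested receptors, 2 were higher and 1 was lower. *Cd93*, a receptor first described for C1q, rose from 19.8 ± 5.73 to 65.1 ± 11.4 FPKM (n = 3 each, SD), with a log2FC of 1.72 (adjusted p = 0.00197, limma). *Itgax*, a chain of complement receptor 4, rose by 0.75 on the log2 scale (adjusted p = 0.0198, limma), but missed the threshold with median-of-ratios scaling (0.52, adjusted p = 0.0577, limma) and without KO replicate 1 or 2 (adjusted p = 0.0703 and 0.0693, limma). *Calr*, an endoplasmic reticulum chaperone that also binds C1q at the surface, fell from 669 ± 22.6 to 273 ± 9.77 FPKM, with a log2FC of -1.29 (adjusted p = 4.84e-05, limma). The C3a receptor gene *C3ar1* had 146.5 to 163.8 FPKM in WT and 171 to 179.7 FPKM in KO and did not pass (adjusted p = 0.126, limma). The C5a receptor gene *C5ar1* had 81.9, 80.4 and 82.2 FPKM in WT, but 14.6 and 16.5 FPKM in KO replicates 1 and 2 and 166 FPKM in KO replicate 3. The groups overlapped through that library alone, and without it the log2FC was -2.36 (adjusted p = 7.62e-05, limma), against -1.23 (adjusted p = 0.306, limma) with it.

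**Figure D4:**
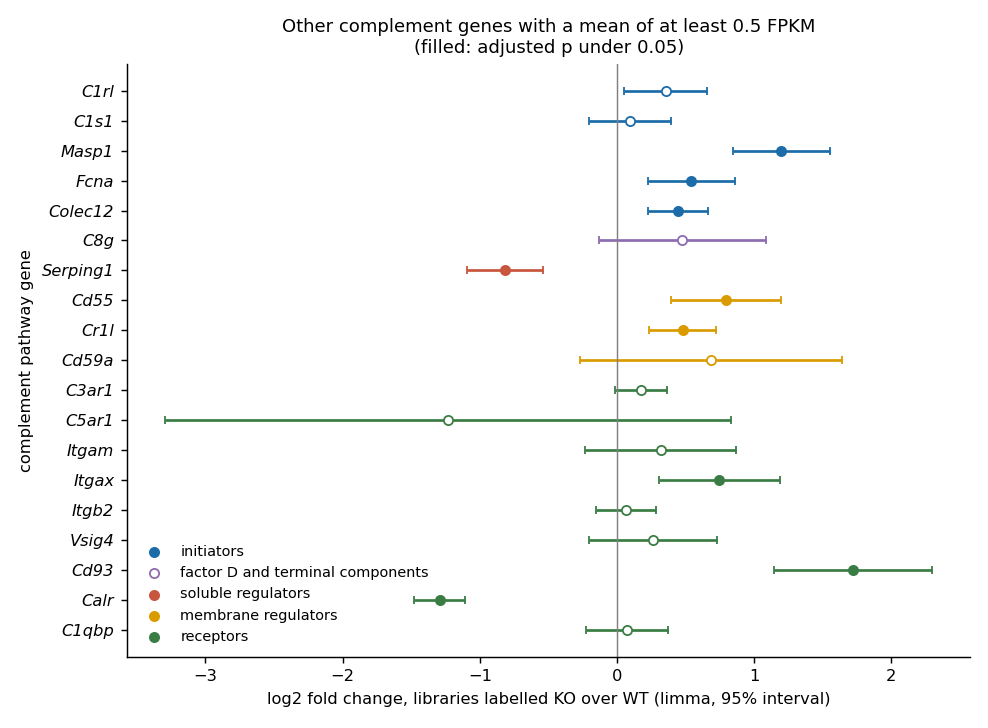
Log2FC in the KO-labelled libraries over those labelled WT for 19 of the 20 tested genes of the 5 complement lists, coloured by list (limma, FPKM as deposited, bars are 95% intervals). Filled points passed an adjusted p-value of 0.05, among them *Cd93* at 1.72 and *Calr* at -1.29, and the widest bar is that of *C5ar1*, with 1 high KO library.

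The genes whose pattern over the 6 libraries lay nearest to C1q were *Snx7*, *Anxa2*, *Rp9*, *Slc35c2* and *Map1lc3a*, with Euclidean distances of 0.0423 to 0.0664 between centred log2 profiles. The most abundant of them was *Anxa2*, with 139 FPKM on average in WT and 202 FPKM in KO. Those nearest to *C3* were *Oasl1*, *Gbp6*, *Cd274*, *Oas3* and *Cd300lf*, at larger distances of 0.268 to 0.472. *Cd274* had 168, 182 and 145 FPKM in WT and 10.9, 10.1 and 8.45 FPKM in KO, and like *C3* it was lowest in replicate 3 of either group. These likenesses describe 6 libraries of 2 groups and carry no test.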

How the data were processed

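RNA-seq values of 6 libraries were analysed, 3 labelled WT and 3 labelled KO, each matched to a table column by its title. The authors deposited FPKM per gene. The submitters' processing notes list fastp 0.17.1, HISAT2 2.1.0, DESeq2 1.18.1 and R 3.4.3, but the quantification tool, annotation and build are not given in the sources used here. For RNA reagents, library kit and sequencer, the sample labels differ from the published methods. FPKM carry no read counts, and a change in abundant genes shifts all others. Of 55335 identifiers, 55154 (99.7%) matched GENCODE M21 (GRCm38), used for symbols and positions.

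After adding a pseudocount of 0.5 and taking log2, the 13367 genes averaging 0.5 FPKM or more were compared by limma 3.58.1 (R 4.3.3, eBayes with trend, two-sided, no covariates), with Benjamini-Hochberg adjustment over all of them. Within-library log2 ratios were compared by exact permutation (scipy 1.17.1). The fit was checked on simulated data in which few genes changed, equally up and down. That check therefore does not cover the scaling between libraries. The members and gene lists were chosen with earlier results of these data known. Named genes are the members, called genes of the lists (at most 6 a list, by the size of the log2 fold change), cell type markers and the 5 nearest profiles to C1q and *C3*. *Gm20547*, *C4a*, locus neighbours and list genes that did not pass were named after their values were seen. Alternatives were other pseudocounts (0.1 and 1), filters (none, and a mean of 5 FPKM) and scalings, a robust variance, a replicate block, each library or replicate 3 of both groups left out, and the study's own cutoff (more than 2-fold, p under 0.05 without adjustment). A single gene of the lists is counted but not otherwise reported here. Promoter sequences are RefSeq's (GRCm38.p6). Markers of other cells covered B cells (2 of 2 tested higher, summing to 0.711 to 1.35 FPKM in WT and 13 to 15.4 FPKM in KO), dendritic cells (none tested, 0.554 to 1.14 and 0.314 to 0.565 FPKM), oligodendrocytes (neither of 2 tested passed, 4.99 to 6.40 and 6.80 to 7.64 FPKM) and astrocytes (1 of 2 tested higher, 6.06 to 7.16 and 8.60 to 9.59 FPKM).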

Additional observations from a re-analysis of the deposited data

How the results depend on the processing

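*C3* and *Cfb* stayed lower and past the threshold under all 18 alternatives, with log2 fold changes between -4.17 and -3.84 and between -6.64 and -4.58. With *Gm20547* added to *Cfb*, a choice made after its values were seen, the difference was -5.06. *C1qa* stayed higher in all 18, between 0.53 and 0.86, and missed the study's fold limit alone. *C1qb* (0.06 to 0.36) passed in 4 alternatives, *C1qc* (0.33 to 0.64) lost its call in 3, *Cfp* (0.22 to 0.54) in 5 and *C1ra* (-0.73 to -0.38) in 8 of 17. *C2* (-0.48 to -0.18) passed in 1, quantile normalization (adjusted p = 0.0294, limma). No member changed sign.

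With median-of-ratios scaling 1 member and 4 genes of the lists were higher, and over all tested genes 2057 were higher and 2259 lower. With upper-quartile scaling these were 1, 5, 2122 and 2152. The share of calls that were higher was 72.0% as deposited, 47.7% and 49.6% with these scalings and 55.7% with quantile normalization. With a mean of at least 5 FPKM, 2739 genes were called in all, 1756 of them higher, and 1 gene of the lists was lower, since fewer genes were tested. With the study's threshold no member (0) was higher, 3 genes of the lists were higher and 1 lower, and 1485 genes were called in all, 893 higher and 592 lower. With libraries left out, between 2 and 4 members were higher and 2 or 3 lower, and between 5 and 10 genes of the lists were higher, the 5 without KO replicate 1, against 8 with all libraries.

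Genes of the lists that turned sign had not passed. With median-of-ratios scaling *C1s1* was at -0.06, *C3ar1* at -0.05, *Itgb2* at -0.16 and *C1qbp* at -0.15, and with upper-quartile scaling they were at -0.05, -0.04, -0.15 and -0.14. *C1s1* was at -0.15 with quantile normalization, *C1qbp* between -0.03 (without WT replicate 2) and 0.17 with single libraries left out, *Itgb2* between -0.01 (without WT replicate 3) and 0.12 and *Itgam* at -0.01 without replicate 3 of both groups. The pseudocount moved the ratios that hold *Cfb*, with C1q against *Cfb* at 7.17 and 5.12 and *C2* against *Cfb* at 6.21 and 4.40 for pseudocounts of 0.1 and 1. The causes of these shifts were not tested.

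Deviations of same-numbered libraries correlated at 0.12, 0.04 and 0.26, and those of differently numbered ones at -0.23 to 0.16. These values do not settle whether equal numbers mark pairs, and the main fit used no block. With the replicate block, 5934 genes were called (4253 higher and 1681 lower) against 5027, and 4 members were higher, *C1qb* among them (adjusted p = 0.0169, limma), and 3 lower. FPKM without counts leave the precision of genes near 0.5 FPKM, such as *C2*, unknown.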
